A study of Mus musculus with 9 samples.

Results

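The genes described here are the odorant receptor (OR) genes whose symbols run from Olfr1417 to Olfr1505, any suffix included. They were set by their number, with earlier results of these data already known. There were 63 of them among the 1248 OR genes and 23607 genes of the count tables. All 63 were placed on chromosome 19 by the GENCODE M21 annotation of GRCm38, the build that mm10 denotes, between chr19:11826803-13921866. Olfr1433 was placed through its synonym Olfr1434. The annotation called 60 of them protein coding, and the other 3 carry the pseudogene suffix -ps1. A stretch from 12423569 to 12670439 that holds none of them separates 17 ORs, Olfr1417 to Olfr1441, from 46 ORs, Olfr1442 to Olfr1505.

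The mRNA was measured by pS6-IP followed by RNAseq, which asks which OR mRNAs are found in olfactory sensory neurons (OSNs) activated by heptanal. All 9 mice were C57BL/6, and each gave 1 olfactory epithelium (OE). The 3 control mice were exposed to distilled water, 3 mice to 1% heptanal and 3 mice to 100% heptanal, each for 1 hr. Replicates 1, 2 and 3 of each group were at postnatal day 22, 21 and 18, and the mice that share a replicate number were littermates of the same sex.

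Each mature OSN transcribes 1 OR gene, from 1 allele, so the mRNA of a given OR comes from the small set of OSNs that chose it. ORs are G protein-coupled receptors that bind odorants at the cilia and, through the G protein subunit encoded by Gnal and the cyclase encoded by Adcy3, raise cyclic AMP. Activity leads to phosphorylation of ribosomal protein S6, and an antibody against the phosphorylated form (pS6) pulls down ribosomes and their mRNA from the active neurons. ORs of 1 subfamily commonly lie next to each other and share much of their sequence, and many OR genes carry binding sites of EBF and homeodomain factors upstream of their start. Heptanal is a straight-chain aldehyde.

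Library totals ranged from 5438494 to 9707592 estimated counts, at which 3 counts make up 5.52e-05% to 3.09e-05% of a library. PCR reads without molecular identifiers are not independent molecules, so such floors cover counting error only. The replicate 1 mice stood apart. ORs of all kinds made up 0.200%, 0.143% and 0.532% of their counts in control, 1% and 100% heptanal, the lowest share of each group, against 0.324% to 0.866% in the other 6 mice. Fewer ORs were detected in them as well. Omp, Gnal, Adcy3, Cnga2 and Ano2, used as 5 markers of mature OSNs, were all present. Their summed levels, in CPM (counts scaled to a common library size), were 4237 to 8713 in control, 6154 to 8480 in 1% heptanal and 10558 to 14891 in 100% heptanal. The 6 sustentacular cell markers also ranged higher at 100% heptanal, at 6327 to 9125 CPM against 3626 to 4949 in control. No marker of another listed cell type was at 0 in all mice. The part of these shifts in the results below was not tested, and for Olfr1423, Olfr1427, Olfr1428 and Olfr1491 values scaled by the OSN markers are given too. In such bulk samples, fewer OSNs of a type, less RNA per OSN and less of that RNA pulled down cannot be told apart.

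The 6 ORs from Olfr1423 to Olfr1428 form the subfamily MOR239. They lie side by side on the minus strand, and all were detected. Coding identity to Olfr1423 was 81.5% for Olfr1427, 81.4% for Olfr1425, 80.7% for Olfr1426, 80.0% for Olfr1424 and 72.1% for Olfr1428. The next of the 60 members with a coding sequence was Olfr1443 of MOR202, at 66.8%. Olfr1424 and Olfr1426 were closer to each other, at 92.2%. Olfr1491 and Olfr1494, of MOR266, were 89.2% identical, and the median over all pairs was 64.7%. The window of 90 coding bases below starts at the codons for methionine and alanine that open the conserved stretch after the third transmembrane segment, and it shows how MOR239 members and the pair from MOR266 differ. Capitals mark bases that differ from Olfr1423 at the same place (GRCm38, 5′ to 3′ along the coding strand).
Olfr1423: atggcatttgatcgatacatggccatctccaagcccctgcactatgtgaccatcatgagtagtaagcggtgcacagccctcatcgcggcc
Olfr1427: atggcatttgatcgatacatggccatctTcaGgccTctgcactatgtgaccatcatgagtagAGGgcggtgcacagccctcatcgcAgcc
Olfr1424: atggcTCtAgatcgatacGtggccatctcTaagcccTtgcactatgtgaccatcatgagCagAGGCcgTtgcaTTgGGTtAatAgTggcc
Olfr1426: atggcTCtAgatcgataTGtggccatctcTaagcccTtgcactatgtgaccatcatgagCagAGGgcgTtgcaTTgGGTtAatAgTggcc
Olfr1428: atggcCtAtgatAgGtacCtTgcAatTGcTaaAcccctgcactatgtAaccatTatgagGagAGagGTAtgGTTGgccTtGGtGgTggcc
Olfr1491: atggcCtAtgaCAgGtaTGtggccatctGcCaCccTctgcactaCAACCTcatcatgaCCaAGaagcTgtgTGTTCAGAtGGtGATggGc
Olfr1494: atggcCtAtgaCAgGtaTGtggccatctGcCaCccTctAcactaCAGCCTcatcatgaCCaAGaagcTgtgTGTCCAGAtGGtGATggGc
Olfr1427 differed from Olfr1423 at 7 of these 90 bases, Olfr1424 and Olfr1426 at 20 each, Olfr1428 at 28, Olfr1491 at 36 and Olfr1494 at 37. 
Upstream sequence is shown for the 3 ORs with the lowest unadjusted p at 100% heptanal among those with the highest levels, Olfr1423 (chr19:12041318-12041467, minus strand), Olfr1427 (chr19:12103335-12103484, minus strand) and Olfr1491 (chr19:13697118-13697267, plus strand). The 150 bases end just before the annotated start of the gene (GRCm38.p6). The words searched on both strands were TAATTA and TAATGA, which resemble sites of homeodomain factors, and CCCNNGGG, which resembles the core of the EBF site. Matches are in capitals.
Olfr1423: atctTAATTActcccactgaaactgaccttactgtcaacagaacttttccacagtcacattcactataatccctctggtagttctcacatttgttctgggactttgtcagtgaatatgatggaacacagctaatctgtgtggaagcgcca
Olfr1427: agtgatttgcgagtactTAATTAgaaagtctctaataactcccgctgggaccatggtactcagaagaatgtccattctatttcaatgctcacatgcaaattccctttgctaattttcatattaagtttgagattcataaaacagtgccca
Olfr1491: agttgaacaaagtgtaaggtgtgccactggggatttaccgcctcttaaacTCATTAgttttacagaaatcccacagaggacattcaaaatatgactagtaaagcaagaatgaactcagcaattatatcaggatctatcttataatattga
TAATTA was found in the windows of Olfr1423 and Olfr1427, and TAATGA on the opposite strand in that of Olfr1491. None of the 3 windows held CCCNNGGG. TAATTA was present in 14.7% and TAATGA in 22.8% of the windows of the 1119 protein coding ORs with an annotated start, and CCCNNGGG in 12.1%. Among the 60 protein coding members these words were present in 15.0%, 16.7% and 8.33%. The match to a word is a description and does not show that a factor binds there.

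Detection of the chromosome 19 ORs was uneven along the chromosome. An OR was called detected in a mouse when its estimated count was at least 1. The number detected was 11, 34 and 33 of 63 in control replicates 1, 2 and 3, 12, 20 and 36 in 1% heptanal, and 18, 37 and 34 in 100% heptanal. The replicate 1 mouse had the lowest number of its group in each case, and the groups overlapped. As a share, this was 41.3% ± 20.6 (SD, n = 3) in control, 36.0% ± 19.4 in 1% heptanal and 47.1% ± 16.2 in 100% heptanal. The other 1185 ORs had 43.3% ± 17.1, 38.2% ± 17.5 and 50.7% ± 11.3 (SD, n = 3), so the chromosome 19 ORs were within 4 percentage points of them in every group. Over all 9 mice, 17 of 63 members (27.0%) reached a count of 1 in no mouse, against 24.0% of the other ORs. In contrast, 7 (11.1%) did so in every mouse, against 12.5%.

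**Figure D1:**
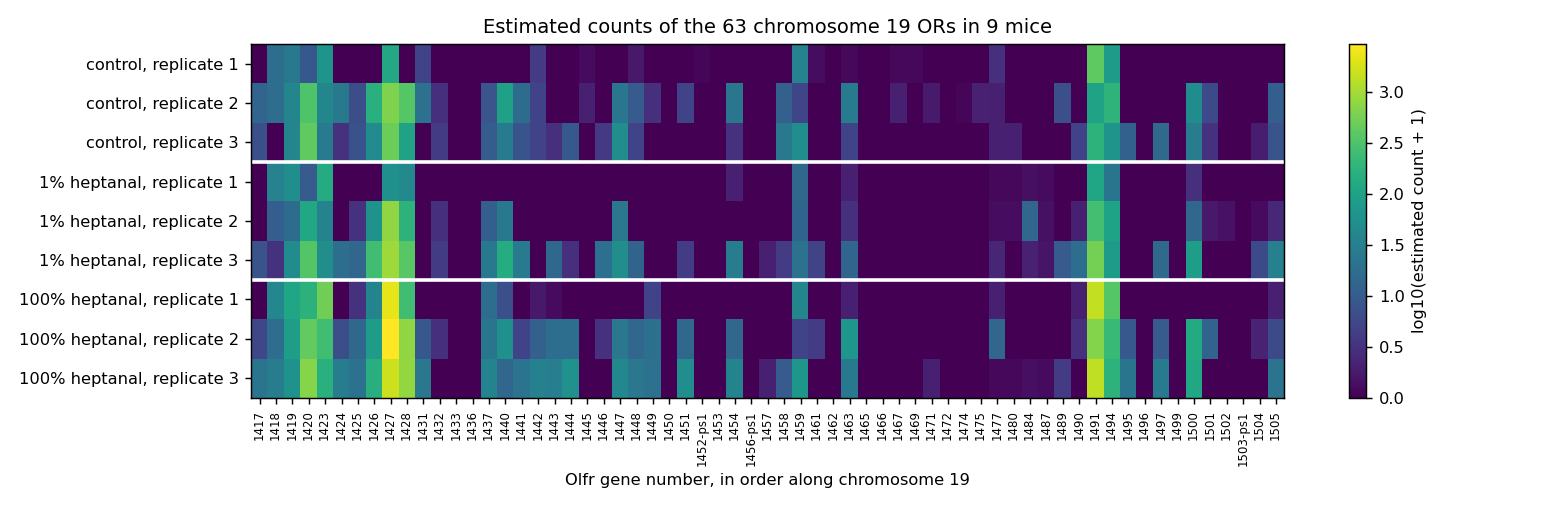
Estimated counts of the 63 chromosome 19 ORs (columns, in order along the chromosome) in each of 9 mice (rows, by group), coloured as log10 of the count plus 1. Counts gathered at Olfr1418 to Olfr1428 and at Olfr1491 and Olfr1494, and 14 neighbouring genes from Olfr1465 to Olfr1490 stayed at or below 17 counts in every mouse.

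The 7 ORs found in every mouse were Olfr1419, Olfr1420, Olfr1423, Olfr1427, Olfr1459, Olfr1491 and Olfr1494. Of the 17 ORs from Olfr1417 to Olfr1441, 2 (11.8%) were detected in no mouse, against 15 of 46 (32.6%) in the second stretch. The longest run of neighbouring genes with too few counts for the test spanned 14 genes from Olfr1465 to Olfr1490 (chr19:13312768-13659545). Within it the highest count in any mouse was 17, and 6 genes reached 1 count in no mouse. The MOR202 subfamily, the largest here with 31 members, was detected through 21 of them, yet it took only 0.0944% to 0.597% of OR counts per mouse. The 6 MOR239 members took 1.44% to 6.48%, and the 8 MOR266 members 1.73% to 4.56%. Some low counts rested on reads that map to several genes. Only 8.33% of the estimated counts of Olfr1432 came from uniquely mapped reads, and for Olfr1471 none did. Over all members together, rescued reads made up 2.82% to 5.67% of the counts per mouse, less than the 10.1% to 14.3% of the other ORs.

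A few ORs carried most of the signal. Olfr1427 held 36.2% of the members' counts over the 9 mice, Olfr1427 and Olfr1491 together 55.1%, and the 10 most abundant 92.4%. Per kilobase of exon (union of the annotated exons), the highest mean levels over all mice were 41.7 CPM per kb for Olfr1427 and 40.5 for Olfr1491, followed by 19.2 for Olfr1428, 11.5 for Olfr1420, 8.64 for Olfr1494, 3.26 for Olfr1423, 3.17 for Olfr1426 and 2.10 for Olfr1419. The ranges over mice of neighbours in this order overlapped throughout. Counts were made on published OR gene models, while these lengths come from the annotation, so the order also depends on the lengths. In CPM without lengths, the means of Olfr1423 and Olfr1494 were close, at 18.2 and 18.6. The order differed between groups. In control, Olfr1491 (19.1 CPM per kb) was above Olfr1427 (16.9), Olfr1420 (11.02) above Olfr1428 (9.98), and Olfr1423 (1.09) below Olfr1426 (2.82) and Olfr1419 (1.43). At 100% heptanal, Olfr1427 was at 84.4, Olfr1491 at 79.9, Olfr1428 at 36.2, Olfr1420 at 17.3 and Olfr1423 at 6.83 CPM per kb.

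The chromosome 19 ORs had a higher share of all OR counts in each mouse at 100% heptanal than in any other mouse. Their share was 6.02%, 5.67% and 6.12% in control replicates 1, 2 and 3, 4.67%, 7.18% and 6.06% in 1% heptanal, and 11.1%, 9.49% and 8.98% in 100% heptanal. The 100% heptanal group did not overlap with the others, while control and 1% heptanal did. The means were 5.94% ± 0.241, 5.97% ± 1.26 and 9.87% ± 1.12 (SD, n = 3). The difference of 100% heptanal from control was 3.93 percentage points, and the share was higher in 3 of 3 litters. A two-sided exact permutation of mice across litters gave p = 0.1, or 0.15 after Benjamini-Hochberg adjustment over 3 comparisons. This permutation ignores the pairing of littermates. Its smallest possible p with 3 unpaired mice against 3 is 0.1, which is not the floor for paired litters. Between 1% heptanal and control the difference was 0.0308 percentage points (exact permutation p = 0.9, adjusted 0.9), and the share was higher in 1 of 3 litters.

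**Figure D2:**
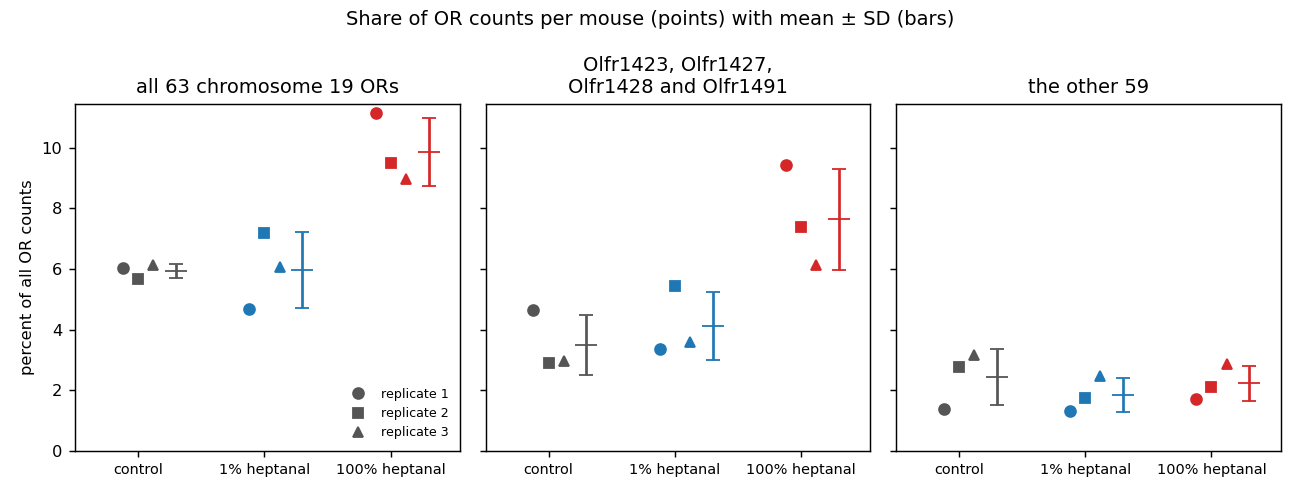
Percent of all OR counts in each mouse (points, shaped by replicate) with the mean and SD of 3 mice (bars), for all 63 chromosome 19 ORs, for Olfr1423, Olfr1427, Olfr1428 and Olfr1491 together, and for the other 59. The 100% heptanal mice lie between 8.98% and 11.1% for all 63, and between 1.70% and 2.86% for the 59, where the groups overlap.

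Shares of subsets are given as a description. Olfr1423, Olfr1427, Olfr1428 and Olfr1491 were grouped after their values were seen, so the choice itself sets how they and the other 59 differ. They took 4.64%, 2.89% and 2.97% of OR counts in control and 9.43%, 7.38% and 6.13% at 100% heptanal. The other 59 took 1.39%, 2.78% and 3.16% in control and 1.70%, 2.11% and 2.86% at 100% heptanal, so these groups overlapped. Without Olfr1427 alone, the remaining 62 took 5.07%, 4.06% and 4.27% in control and 6.46%, 4.82% and 6.49% at 100% heptanal. Their means were 4.47% ± 0.532 and 5.92% ± 0.958 (SD, n = 3). This share was higher in each litter, but the groups overlapped. The lack of overlap with control seen for all members together was thus lost without Olfr1427. The first stretch, up to Olfr1441, took 1.85%, 4.50% and 4.43% in control and 7.17%, 7.48% and 5.68% at 100% heptanal, with no overlap. Olfr1427, which lies in this stretch, alone took 0.952%, 1.60% and 1.85% in control and 4.67%, 4.67% and 2.49% at 100% heptanal. The second stretch took 4.17%, 1.17% and 1.70% in control and 3.96%, 2.01% and 3.30% at 100% heptanal, which overlapped. Whether the stretches differ apart from Olfr1427 was not tested.

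Of the 63 members, 20 (31.7%) had enough counts to be tested for a difference in level, against 428 (36.1%) of the other ORs. None of the 43 others had more than 83 counts in all over 9 mice. Tests used edgeR's quasi-likelihood fit with p adjusted by the Benjamini-Hochberg method over all 14930 genes tested, with a threshold of 0.05. At 100% heptanal against control, 0 of 20 members passed without the litter in the model, where 0.0134% of all genes tested were called higher. The unadjusted p was under 0.05 for 4 members, all higher at 100% heptanal (Olfr1419, Olfr1423, Olfr1427 and Olfr1491), that is 20%, against 13.1% of the other ORs and 3.01% of all genes. DESeq2 called 1 member, Olfr1423, that is 5%, near the 3.97% of the other ORs, against 0.442% of all genes. With the litter as a block, Olfr1423 passed, so 1 of 20 members was called (5%), against 7 of the 428 other ORs (1.64%) and 0.322% of all genes tested. The unadjusted p in that fit was under 0.05 and higher for 8 members (40%), against 28.7% of the other ORs and 6.63% of all genes. Adjusted over the 448 ORs alone, the block fit called 2 members, Olfr1423 and Olfr1427, that is 10%, near the 8.93% of ORs called higher by that rule.

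As a list, the members had values near those of the other ORs. Without the block, log2 fold changes at 100% heptanal were above 0 in 17 of 20, with a median of 1.01, against 0.93 for the 428 other ORs, of which 73.4% were above 0. These medians cover only genes that passed the filter on low counts. The level was higher at 100% heptanal than in the control littermate in all 3 litters for 9 of 20 members (45.0%) and 43.2% of the other ORs. In 5 members (Olfr1419, Olfr1423, Olfr1427, Olfr1437 and Olfr1491), every 100% heptanal mouse was above every control mouse. That is 25.0%, against 19.9% of the other ORs and 5.96% of all genes tested. Olfr1437 had 0, 7.19 and 9.11 estimated counts in control and 17, 21 and 36 at 100% heptanal. It passed the filter on low counts only with the 100% heptanal mice counted, so its lack of overlap is not independent support. When libraries were instead scaled so that the ORs had no shift on balance, the median of all genes at 100% heptanal was -1.14, and the members' median was 0.013 against -6.2e-05 for the other ORs.

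**Figure D3:**
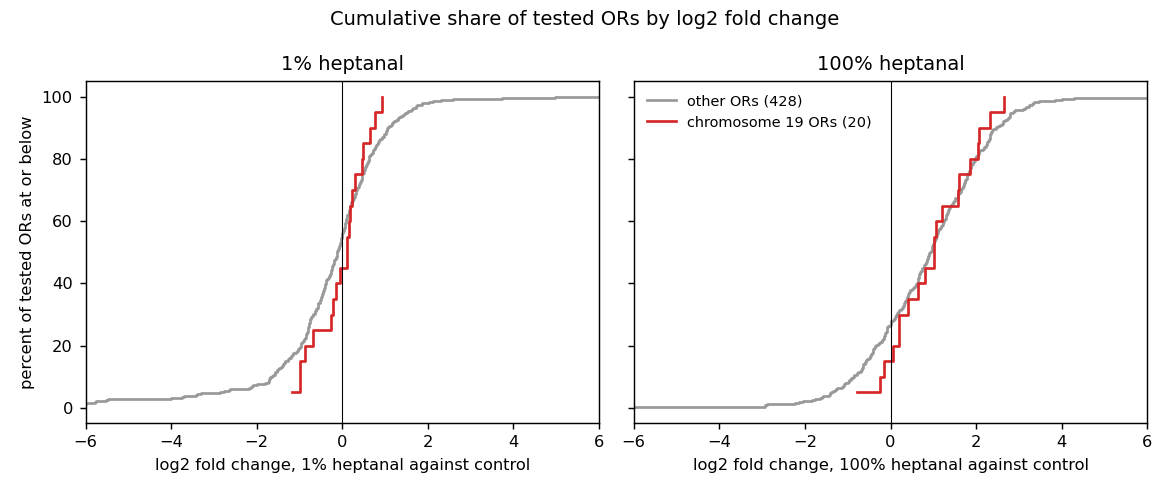
Cumulative share of tested ORs (vertical axis, percent) at or below each log2 fold change against control (horizontal axis, which leaves out the few values beyond its ends), for the 20 chromosome 19 ORs and the 428 other ORs, at 1% heptanal (left) and 100% heptanal (right), from the fit without a block. At 100% heptanal the medians are 1.01 and 0.93, and at 1% heptanal 0.12 and -0.12.

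Olfr1423 (chr19:12031787-12041317, minus strand, MOR239-3) was the member called higher at 100% heptanal once litters were compared within themselves. Its level was 9.60, 5.36 and 3.29 CPM in control replicates 1, 2 and 3, 20.2, 5.91 and 5.02 CPM in 1% heptanal, and 60.2, 35.6 and 18.3 CPM in 100% heptanal. All 100% heptanal mice lay above all control mice, and in each group replicate 1 was highest and replicate 3 lowest. Against the control littermate, the 100% heptanal mouse was 6.27-fold, 6.65-fold and 5.58-fold higher. The log2 fold change was 2.65 ± 0.69 (SE), with an unadjusted p of 0.00425 and an edgeR adjusted p of 0.733. With the litter as a block it was 2.63 ± 0.27, with an edgeR adjusted p of 0.00695, and its p was the lowest of all 448 ORs tested. Without the block it ranked 17 among them. Olfr1423 was singled out with an earlier result on it known, so these ranks are not independent support. As a share of OR counts, Olfr1423 was 0.488%, 0.0963% and 0.0980% in control and 1.13%, 0.402% and 0.250% at 100% heptanal. This share was higher in each litter, but the groups overlapped. In 1% heptanal replicate 1 it was 1.34%, above the 100% heptanal littermate.

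That call, adjusted over all genes, depended on which mice were in the fit. With the block it was lost when a control mouse was left out (edgeR adjusted p of 0.118, 0.0758 and 0.0853 without control replicates 1, 2 and 3) and without 100% heptanal replicate 2 (0.0797), while the log2 fold change stayed between 2.44 and 2.74. Adjusted over the ORs alone, the edgeR p in these fits was 0.0377, 0.0145, 0.0308 and 0.0196. On 2 other scales with the block the call held, at a smaller fold. With libraries scaled over the ORs the log2 fold change was 1.59 (edgeR adjusted p = 0.00903), and with libraries scaled by the 5 OSN markers it was 1.61 (edgeR adjusted p = 0.00245). At 1% heptanal the 3 mice were 2.10-fold, 1.10-fold and 1.53-fold above their control littermates, and the log2 fold change of 0.77 ± 0.67 did not pass (edgeR adjusted p = 1.00, with and without the block). Without 1% heptanal replicate 1 it was -0.16. Between 100% and 1% heptanal the log2 fold change was 1.88 ± 0.67 (edgeR adjusted p = 1.00) and, with the block, 1.98 ± 0.26 (edgeR adjusted p = 0.0462). Olfr1423 was there the only one of 20 members called, against 0.0804% of all genes tested, and leaving out any mouse ended this call (edgeR adjusted p of 0.0606 or more). It was also lost with the block and libraries scaled over the ORs, where the log2 fold change was 0.77 (edgeR adjusted p = 0.124) and Olfr1420 and Olfr1427 were called instead. With scaling by the OSN markers it was 1.20 (edgeR adjusted p = 0.0148).

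**Figure D4:**
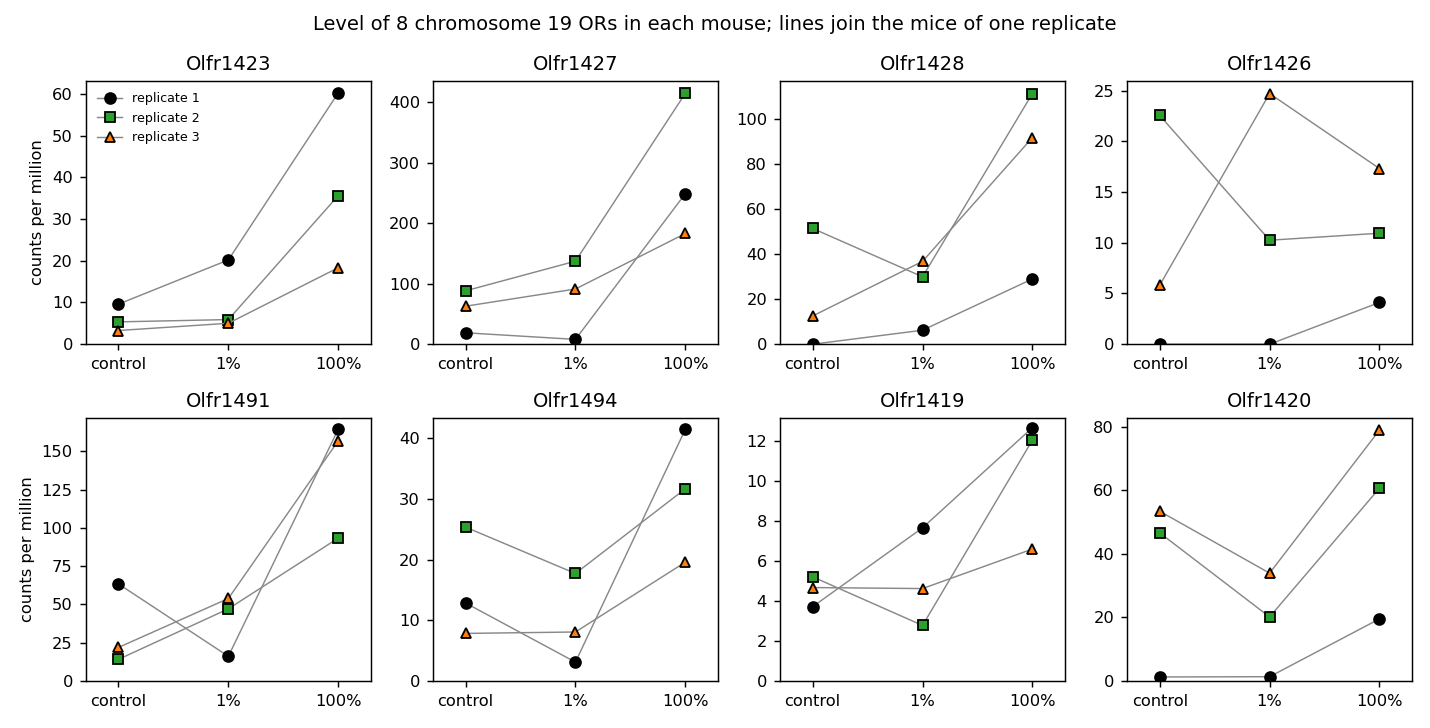
Level in CPM (vertical axis, from 0) of 8 chromosome 19 ORs in control, 1% and 100% heptanal, with a line joining the 3 littermates of each replicate. Olfr1423 and Olfr1427 are higher at 100% heptanal in each litter and without overlap with control, and Olfr1426 overlaps throughout.

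The nearest relatives of Olfr1423 differed in level and in spread. Olfr1427 (chr19:12098006-12103334, MOR239-4), the most abundant member, was at 18.9, 88.2 and 62.8 CPM in control, 7.96, 137 and 91.2 in 1% heptanal and 249, 415 and 183 in 100% heptanal. Its 100% heptanal mice were above all the others, by 13.2-fold, 4.70-fold and 2.91-fold over the control littermates. The log2 fold change was 2.32 ± 0.89 (edgeR adjusted p = 1.00) and with the block 2.67 ± 0.61 (edgeR adjusted p = 0.157, or 0.0335 adjusted over the ORs). The block with a likelihood ratio test called it (2.70, edgeR adjusted p = 0.00198). The block with other scales also called it over all genes, at smaller folds. It was 1.51 with libraries scaled over the ORs (edgeR adjusted p = 0.00818, or 0.00899 adjusted over the ORs) and 1.65 with the OSN markers (edgeR adjusted p = 0.0202, but 0.119 adjusted over the ORs). On these 2 scales 7675 and 9694 of the 14930 genes were called lower. Olfr1428 (chr19:12107716-12115897, MOR239-5) was at 0, 51.3 and 12.5 CPM in control, 6.19, 29.9 and 36.7 in 1% heptanal and 28.9, 111 and 91.6 in 100% heptanal. It was higher than control in each litter but the groups overlapped, and the log2 fold change was 1.86 ± 1.32 (edgeR adjusted p = 1.00), or 2.60 ± 0.75 with the block (edgeR adjusted p = 0.254). With the block it was called when libraries were scaled over the ORs (1.67, edgeR adjusted p = 0.00621, or 0.00438 adjusted over the ORs) and by the OSN markers (1.66, edgeR adjusted p = 0.0386, but 0.16 adjusted over the ORs).

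Between these genes on the chromosome lie Olfr1424, Olfr1425 and Olfr1426. Olfr1426 was at 0, 22.5 and 5.81 CPM in control, 0, 10.2 and 24.7 in 1% heptanal and 4.12, 10.9 and 17.3 in 100% heptanal. Control and 100% heptanal overlapped, with a log2 fold change of 0.19 ± 1.60 (edgeR adjusted p = 1.00). Olfr1424 was at 3.38 CPM or less in every mouse, with a log2 fold change of 0.19 ± 1.86 that was -0.28 with the block. Olfr1425 had too few counts for the test, from 0 to 18.7 estimated counts per mouse. Of the reads of these genes, 80.7% were uniquely mapped for Olfr1426, 68.2% for Olfr1424 and 61.0% for Olfr1425, against 98.1% for Olfr1423 and 97.5% for Olfr1427, so the split between the first 3 is uncertain. Whether the fold changes of MOR239 members differ from each other was not tested.

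The MOR266 members lie at both ends of the region, Olfr1417 to Olfr1420 at the first and Olfr1490 to Olfr1495 toward the last. Olfr1491 (chr19:13697268-13706127, plus strand, MOR266-8) was at 63.3, 14.1 and 21.9 CPM in control, 16.1, 47.1 and 53.8 in 1% heptanal and 164, 93.3 and 157 in 100% heptanal. All 100% heptanal mice were above all the others. The log2 fold change was 2.06 ± 0.62 (edgeR adjusted p = 0.851), or 2.15 ± 0.58 with the block (edgeR adjusted p = 0.223). It was called by the block with a likelihood ratio test (2.15, edgeR adjusted p = 0.0168) and with libraries scaled over the ORs (1.07, edgeR adjusted p = 0.0312, but 0.0789 adjusted over the ORs). It was not called with scaling by the OSN markers (1.11, edgeR adjusted p = 0.0712). As a share of OR counts, however, Olfr1491 was 3.20%, 0.257% and 0.646% in control and 3.09%, 1.05% and 2.14% at 100% heptanal, so it was higher in 2 of 3 litters. Its close relative Olfr1494 (chr19:13739728-13750479, MOR266-1) was at 12.9, 25.4 and 7.84 CPM in control, 3.10, 17.7 and 8.07 in 1% heptanal and 41.5, 31.7 and 19.6 in 100% heptanal. It was higher than control in each litter, with overlap between groups, and the log2 fold change was 1.01 ± 0.64 (edgeR adjusted p = 1.00).

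Olfr1419 (chr19:11868613-11875106, MOR266-10) was at 3.72, 5.21 and 4.68 CPM in control, 7.67, 2.78 and 4.63 in 1% heptanal and 12.7, 12.1 and 6.61 in 100% heptanal. The last group did not overlap with control. Its log2 fold change was 1.20 ± 0.47 (edgeR adjusted p = 1.00), and it was 0.11 when libraries were scaled over the ORs. Olfr1420 (chr19:11886565-11898079, plus strand, MOR266-4), the tested gene next to Olfr1423 on the side of lower coordinates, was at 1.24, 46.6 and 53.5 CPM in control, 1.33, 20.2 and 34.0 in 1% heptanal and 19.5, 60.7 and 79.0 in 100% heptanal. It was low in replicate 1 of every group, and the groups overlapped, with a log2 fold change of 0.65 ± 1.21 (edgeR adjusted p = 1.00). Within litters it was 15.8-fold, 1.30-fold and 1.48-fold above the control littermate, and with the block the log2 fold change was 1.35 ± 0.56 (unadjusted p = 0.0411, edgeR adjusted p = 0.456).

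**Figure D5:**
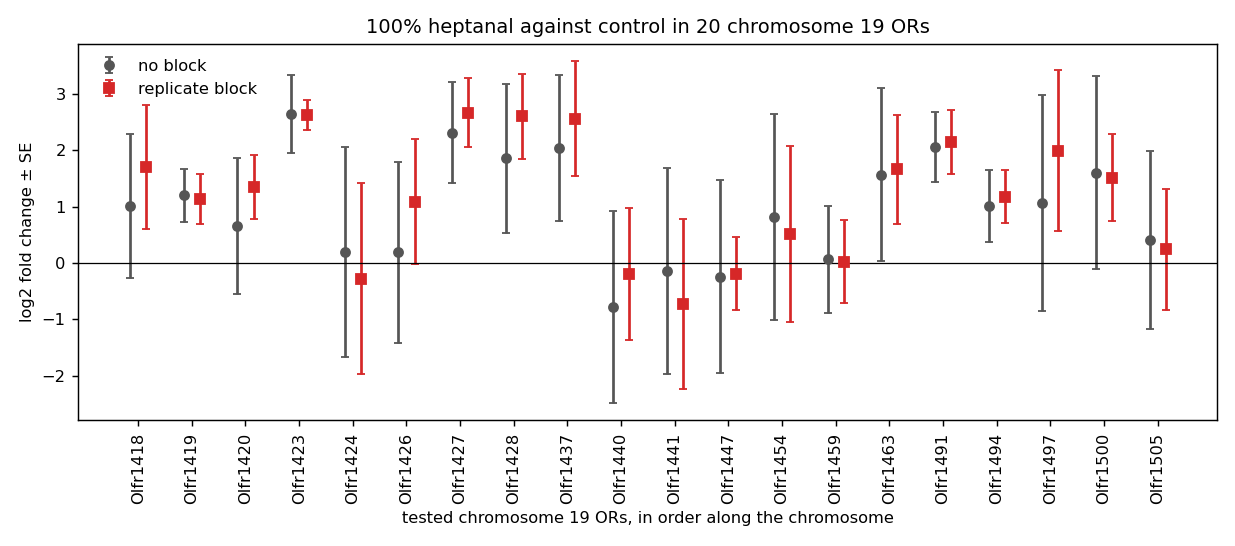
Log2 fold change at 100% heptanal against control (vertical axis) with its SE for the 20 tested chromosome 19 ORs in chromosome order, without a block (circles) and with the litter as a block (squares). Olfr1423 has 2.65 ± 0.69 and 2.63 ± 0.27, and without the block 14 of the 20 genes have errors above 1.

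The remaining tested members had low levels and wide errors. Olfr1440 (chr19:12387279-12401584, plus strand, MOR215-1), known as a receptor for the musk odorant muscone, was at 0, 13.7 and 3.16 CPM in control, 0, 4.17 and 13.9 in 1% heptanal and 0.686, 7.71 and 1.48 in 100% heptanal. The groups overlapped, and its log2 fold change of -0.78 ± 1.70 was the lowest of the 20 (edgeR adjusted p = 1.00). Its neighbour Olfr1441 and Olfr1447 were the other members below 0, at -0.14 ± 1.82 and -0.24 ± 1.71. Olfr1437 passed the filter on low counts only with the 100% heptanal mice counted. It was at 0, 0.986 and 1.14 CPM in control and 1.94, 2.95 and 4.10 in 100% heptanal. These did not overlap, with a log2 fold change of 2.04 ± 1.29 (edgeR adjusted p = 1.00), but only 66.0% of its reads were unique and Olfr1436 is 96.3% identical to it in coding sequence. The 4 tested MOR202 members had a median log2 fold change of 0.44, the 5 of MOR266 1.01 and the 5 of MOR239 1.86.

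At 1% heptanal no member stood out. None of the 20 passed without or with the block, where edgeR called 0 of all genes tested higher (0%), and DESeq2 called 0 members. No member had an unadjusted p under 0.05 without the block, and 1, Olfr1423, did with it. That is 5% called higher, against 2.34% of the other ORs and 1.32% of all genes tested. Of the other ORs, 10 were higher and 29 lower by that rule. The median log2 fold change was 0.12, against -0.12 for the other ORs. The 3 lowest p-values among members with positive values belonged to Olfr1423, Olfr1437 (0.93 ± 1.28) and Olfr1427 (0.48 ± 0.86), and among those with negative values to Olfr1494 (-0.68 ± 0.64), Olfr1459 (-0.99 ± 0.98) and Olfr1463 (-1.18 ± 1.59). Between 100% and 1% heptanal, 0 of 20 passed without the block (0.0134% of all genes called higher), 4 (20%) had an unadjusted p under 0.05, against 14.5% of the other ORs and 2.09% of all genes, and DESeq2 called 0, against 2.8% of the other ORs and 0.167% of all genes. Adjusted over the ORs, the block fit called 4 (Olfr1420, Olfr1423, Olfr1427 and Olfr1494), that is 20% against 14.3% of all ORs tested.

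Replicates differed in which members they held. Olfr1420, Olfr1426, Olfr1428, Olfr1440 and 5 others, 9 of 20 tested members in all (45.0%), were lowest in the replicate 1 mouse in all 3 groups, against 31.3% of the other ORs. Olfr1423 and Olfr1418 were highest there in all 3 groups, 10% against 1.87%. The replicate 1 mice were also the oldest, and their sample titles begin with YJC where all others begin with YJE. What these letters mark is not stated. Litter, age and this difference in labels cannot be told apart.

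The ORs whose levels most resembled those of Olfr1423 over the 9 mice, by Pearson's r of log2(CPM + 1), were Olfr53 (r = 0.91), Olfr167 (r = 0.90) and Olfr622 (r = 0.89), none of them in this region. The closest member was Olfr1419 (r = 0.87), and Olfr1427 had r = 0.31. These mice share litters and treatment, so r is a description over 9 mice. The OR genes of other numbers in the region added little. Olfr76 had at most 36 counts in a mouse, Olfr235 had 7 counts in control replicate 3 and 0 in all others, and Olfr262 was at 0 in all 9.

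Genes that act with the ORs were counted from lists of known genes. At 100% heptanal, 0.0134% of all genes tested were called higher without the block and 0.322% with it, for comparison with both lists. Of 25 genes of odour transduction and OR trafficking, 0 were called there without the block and 4 with it, all higher. They were Kirrel2, a cell adhesion molecule (log2 fold change 1.17), Gng13, a G protein subunit (1.41), Stoml3, a membrane protein of OSN cilia (1.22), and Omp, the marker of mature OSNs (1.11). The list's median was 0.50 without the block. Of 13 tested immediate early genes, which neurons transcribe within minutes of activity, 1 (Fosb) was called without the block and 4 with it, Fos (2.72), Fosb (4.98), Egr1 (2.98) and Nr4a1 (2.18), with a median over the list of 1.37 against -0.03 over all genes tested. At 1% heptanal 0 genes of either list were called in either fit, and the medians were 0.04 and -0.06.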

How the data were processed

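RNAseq after pS6-IP was measured in the OE of 9 mice. The authors used Bowtie (genome mm10) for the 50-base reads and BEDTools for counting, with published OR gene models in place of the annotated ones. Versions are not given in the sources used here. They deposited headerless tables, in which the uniquely mapped counts (column 2) and the expected counts after rescue of reads that map to several genes (column 21) were identified from their values. Poly-T priming and PCR make levels depend on the annotated gene ends. The deposited estimated counts were rounded, filtered with filterByExpr, scaled by TMM and tested with edgeR 4.0.16 in R 4.3.3 (glmQLFit, glmQLFTest, 3 groups, no block), since the methods name edgeR but no design. CPM used TMM library sizes. Standard errors are the log2 fold change over the square root of the test statistic. P-values of the fit without the block measure the spread between mice of a group. With the block they measure the spread left once litter differences are removed. In both, 3 mice per group limit them.

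Replicate numbers mark litters by the study's methods. Deviations from group means of littermates correlated in all 9 pairs (r at least 0.179), so the block fit is printed where it changes a call. Mice of 1 group differed by at least 31.7 chi-square units per degree of freedom, so none was counted as a duplicate. The members and lists were chosen with earlier results of these data known. Named genes are Olfr1423, members called in a fit, the 8 highest levels per kb, the lowest p-values in each direction, the muscone receptor, tested neighbours of Olfr1423, its 3 nearest relatives, the 3 most similar patterns and the region's other ORs. Likeness of protein sequence was replaced by coding identity, aligned with Biopython 1.88. The edgeR steps were tested on simulated data. Alternatives were DESeq2 1.42.0, other scalings, no filter, unique counts and leaving out each mouse.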

Additional observations from a re-analysis of the deposited data

How the results depend on the processing

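The fit without a block called 0 of the 20 tested chromosome 19 ORs in each comparison, and no alternative called any at 1% heptanal. At 100% heptanal against control, 1 was called with the replicate block, by DESeq2, and with the block on uniquely mapped counts or RLE size factors. In that order, 1.64%, 3.97%, 1.79% and 1.4% of the other ORs were called higher, and 0.322%, 0.442%, 0.325% and 0.315% of all genes tested. The block called 3 with a likelihood ratio test, 4 with TMM over the ORs, 3 with scaling by 5 OSN markers, 2 adjusted over the ORs and 3 with TMM over the ORs adjusted over the ORs. Those counts of 20 stand beside 13.3%, 9.81%, 8.64%, 8.88% and 5.37% of the other ORs called higher, and the scalings called 46 and 37 other ORs lower. Leaving out each mouse gave 0 to 3, the latter with the block and without 1% heptanal replicate 1 (Olfr1423, Olfr1427 and Olfr1491). No share of the other ORs stands beside these leave-one-out counts, so they do not show that members were called more often. At 100% against 1% heptanal the block called 1, also on uniquely mapped counts or RLE size factors, 4 by the likelihood ratio test, 2 with TMM over the ORs, 3 with OSN scaling, 4 adjusted over the ORs, and 1 with TMM over the ORs adjusted over the ORs. The other ORs called higher were 0% with the block alone, on uniquely mapped counts or RLE size factors, and in the order of the last 5 counts 16.4%, 17.1%, 12.9%, 14.0% and 11.4%. The block combined with other scalings or with leaving out a mouse was chosen after seeing the data. Olfr1423 at 100% heptanal passed with the block (2.63, also adjusted over the ORs and by the likelihood ratio test), on uniquely mapped counts (2.64), RLE size factors (2.62), TMM over the ORs (1.59) and OSN scaling (1.61), and by DESeq2 (2.64). Leaving out each mouse gave 2.15 to 3.14.

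TMM over the ORs and OSN scaling moved the median of all genes at 100% heptanal to -1.14 and -1.11. The median of the chromosome 19 ORs was 0.013 and 0.11 under them, 0.30 and 0.26 with the block added, and 1.53 by the likelihood ratio test. That of the other ORs was -6.2e-05 and -0.037, 0.13 and 0.13, and 1.19. Without 1 mouse, the chromosome 19 median was 0.25 to 2.26 at 100% heptanal and -1.88 to 0.75 at 1%, and that of the other ORs 0.55 to 1.67 and -1.02 to 0.42. The share of OR counts was 6.40% in control on uniquely mapped counts, and 4.53%, 4.16% and 6.16% in control, 1% and 100% heptanal with Olfr1427 left out of all counts. Without 1 mouse it was 5.84% to 6.07%, 5.36% to 6.62% and 9.24% to 10.3%, and the number detected was 22.0 to 33.5, 16.0 to 28.0 and 26.0 to 35.5.

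Directions turned in genes that had not passed a test, and the cause was not tested. At 100% heptanal, TMM over the ORs and OSN scaling gave -0.28 and -0.46 for Olfr1420, -0.35 and -0.35 for Olfr1424, -0.46 and -0.55 for Olfr1426 and -1.13 and -1.09 for Olfr1459. With the block added they gave -1.01 and -1.14 for Olfr1424 and -1.09 and -1.07 for Olfr1459. Olfr1424 was -0.28 with the block, also with RLE size factors and adjusted over the ORs, and -0.50 by the likelihood ratio test, which gave 0.40 for Olfr1440. On uniquely mapped counts Olfr1447 was 0.047, or 0.13 with the block, and Olfr1459 -0.012 with the block. Without 1 mouse, the range at 100% heptanal was -2.29 to 3.901 for Olfr1424, -0.39 to 2.83 for Olfr1426, -2.34 to 1.504 for Olfr1440, -2.43 to 1.84 for Olfr1441, -0.96 to 0.75 for Olfr1447 and -0.73 to 0.57 for Olfr1459. At 1% heptanal it was -0.16 to 1.26 for Olfr1423, -0.23 to 1.00 for Olfr1427, -1.53 to 0.27 for Olfr1459 and -2.38 to 1.16 for Olfr1463. Most of these ORs had few counts, which limits their precision.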
